A study of Alligator mississippiensis with 17 samples.

Results

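The comparison sets 4 dental lamina libraries of the early growth stage of the tooth cycle (EG, replicates 1 to 4) against 3 dental lamina libraries of the initiation stage (IS, replicates 1 to 3), and it uses those 7 of the 17 libraries of the series. Expression was measured by RNA sequencing of total RNA from dissected tissue of American alligators that were 1 year old, raised in the laboratory at 30 °C and left untreated, which holds for both groups. No line, transgene or treatment separates the groups, only the stage in the sample titles. The other libraries, 5 of dental lamina before initiation (PIS) and 5 of replacement teeth (RT), belong to neither group. They are quoted for the level of some genes, and PIS also enters 1 alternative fit. A label field for the stage reads pre-initiation in all 17 samples, so the titles and the column names were followed. The labels do not say how many animals were used or whether any sample pools tissue, and each p-value therefore speaks only of how far these samples scatter, which may be technical. Of 20703 genes in the deposited table, 12363 had at least 1 RPKM in at least 3 of the 7 libraries and were tested. RPKM counts reads per kilobase of gene model, scaled to the alignments of the library, so levels are comparable between genes. A gene is called when its Benjamini-Hochberg adjusted p from limma is under 0.05. Fold changes are differences, EG minus IS, of mean log2(RPKM + 0.5), a scale that understates changes of genes near 0.

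Alligators replace their teeth throughout life, and each successor tooth buds from the dental lamina, a strand of oral epithelium that keeps progenitor cells. At initiation the lamina thickens into a bud under SHH, WNT, FGF and BMP signals exchanged with the mesenchyme, and as the bud grows its inner epithelium turns into ameloblasts. Ameloblasts secrete the enamel matrix proteins, cut them with proteases and move calcium, bicarbonate and sodium across the epithelium while the mineral grows.

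Depth was 22368700 to 37747400 alignments in EG libraries and 22393100 to 25075900 in IS libraries. Spearman's rho across the tested genes, which are not independent replicates, was 0.966 to 0.986 between EG libraries, 0.944 to 0.974 between IS libraries and 0.881 to 0.958 across the groups. IS replicate 2 stood farthest out on the first principal component, at 49.3 beside 14.96 and 27.2 for the other IS libraries and -33.4 to -16.1 for EG. The markers of the labelled tissue were present in both groups, among them EPCAM with 179, 129, 158 and 169.7 RPKM in EG replicates 1 to 4, against 130.5, 72.9 and 118 RPKM in IS replicates 1 to 3. TP63, a transcription factor of stratified epithelium, had 26.4, 20.2, 24.5 and 29.2 RPKM in EG replicates 1 to 4, against 19.9, 13.5 and 21.2 RPKM in IS replicates 1 to 3. Connective tissue was present too. The summed level of 31 listed fibroblast genes was 4844 to 7551 RPKM in EG and 6429.6 to 14521 RPKM in IS, highest in IS replicate 2. The 24 oral epithelium genes summed to 1227 to 1790.4 RPKM in EG and 1125 to 1392 RPKM in IS, lowest in IS replicate 2. In such bulk samples fewer cells of a type and less RNA per cell cannot be told apart.

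Genes of the enamel-forming epithelium were among those with the greatest rises in EG, and more genes were called higher than lower. Of the 12363 genes tested, 940 were called (7.60%), 620 of them higher in EG (5.01%) and 320 lower (2.59%). The filter on low values is uneven in direction. A gene found only in EG passes with 3 of 4 EG libraries, whereas a gene found only in IS needs all 3 IS libraries. Without the filter 552 genes were called higher and 339 lower. The median gene was 0.055 higher in EG on the log2 scale. EG and IS values did not overlap for 2849 of the tested genes (23.0%), 1782 with EG above IS (14.4%) and 1067 with EG below IS (8.63%). An unadjusted p under 0.05 was found for 3060 of the tested genes (24.8%). The number of calls moved with single libraries. It was 498 without EG replicate 3, 587 without IS replicate 2 and 522 without IS replicate 3. Adding the 5 PIS libraries to the fit, which then share in the estimate of the spread, left 285 calls.

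**Figure D1:**
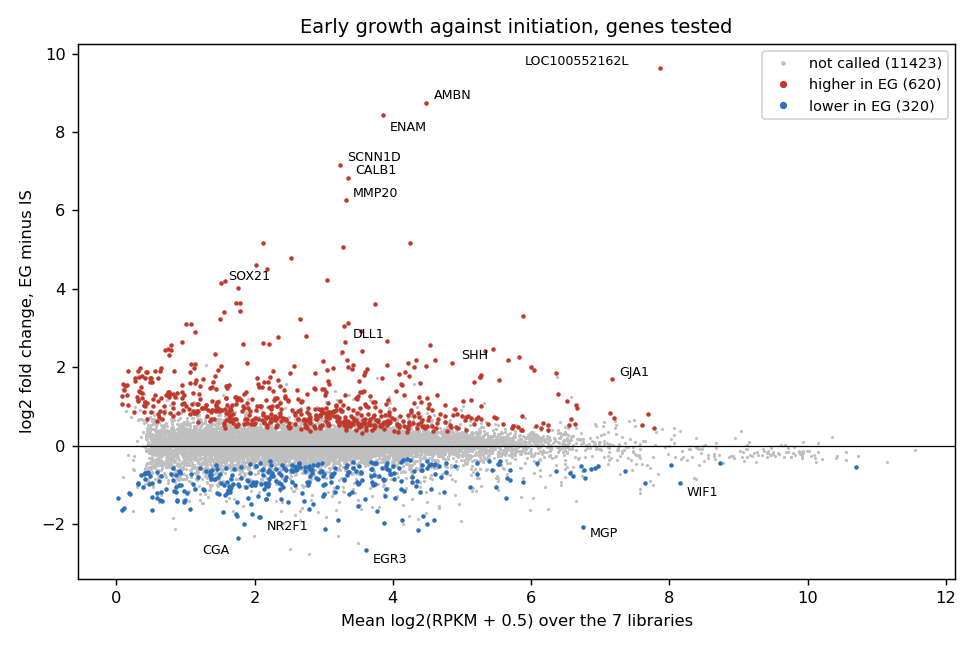
Each point is a tested gene, with its mean log2(RPKM + 0.5) over the 7 libraries on the x axis and its log2 fold change, EG minus IS, on the y axis. The 620 genes called higher in EG reach a log2 fold change of 9.63, whereas the 320 called lower reach -2.66.

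AMBN, ENAM and MMP20, which encode matrix proteins and a protease of enamel, were abundant in EG and barely detected in IS. AMBN encodes ameloblastin, a structural protein of the enamel matrix. It had 35.3, 133, 928 and 1858 RPKM in EG replicates 1 to 4, against 0.149, 0.175 and 0.285 RPKM in IS replicates 1 to 3. Every EG library exceeded every IS library, and the EG libraries themselves spanned a wide range, with replicates 3 and 4 far above replicates 1 and 2. On the log2 scale AMBN was higher by 8.75 ± 1.16 (SE, adjusted p = 0.00335). ENAM, the gene of the large matrix protein enamelin, had 53.2, 82.1, 416 and 531 RPKM in EG replicates 1 to 4, against 0, 0.0325 and 0 RPKM in IS replicates 1 to 3, with IS replicates 1 and 3 listed at 0. On the log2 scale it was higher by 8.44 ± 0.74 (SE, adjusted p = 0.000465). MMP20, the protease that cuts the secreted matrix, had 48.5, 28, 96.8 and 123 RPKM in EG replicates 1 to 4, against 0.532, 0.0229 and 0.57 RPKM in IS replicates 1 to 3 (6.26 ± 0.48 SE, adjusted p = 0.000231). FAM20A, whose product is a pseudokinase needed for phosphorylation of enamel proteins, had 27, 25.5, 26.8 and 27.8 RPKM in EG replicates 1 to 4, against 12.6, 12.3 and 12.3 RPKM in IS replicates 1 to 3 (1.08 ± 0.084 SE, adjusted p = 0.000231). Its groups were narrow and apart, and it was already well detected in IS. ACPT, an acid phosphatase gene that is needed for enamel in humans and was named after its values were seen, had 5.62, 6.78, 16 and 23.1 RPKM in EG replicates 1 to 4, against 1.02, 1.15 and 1.41 RPKM in IS replicates 1 to 3 (2.77, adjusted p = 0.00662).

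In all, 5 of the 7 tested enamel genes were called higher and 0 lower, beside 5.01% and 2.59% of all genes, and the median of the list was 2.77 beside 0.055 over all genes. AMBN, ENAM and MMP20 were under 1 RPKM in every IS library and passed the filter only through EG, which favours a higher call. The count and the median are therefore description only. The calls of these 5 genes held under every alternative of the fit that tested them. FAM83H (0.61, adjusted p = 0.0636) and FAM20C (0.15, adjusted p = 0.631) were not called, and AMTN, at 0.432, 0.554, 1.84 and 1.67 RPKM in EG and 0.123, 0.0211 and 0.16 RPKM in IS, was too low to be tested. A gene listed only by the model identifier LOC100552162L, named after its values were seen, showed the greatest rise of all. It had 755, 1241, 10885 and 27102 RPKM in EG replicates 1 to 4, against 5.75, 3.13 and 5.57 RPKM in IS replicates 1 to 3 (9.63 ± 1.11 SE, adjusted p = 0.00185). This transcript alone made up 10.3% of the summed RPKM of EG replicate 4 and 4.29% of that of EG replicate 3, beside 0.3005% and 0.512% in EG replicates 1 and 2 and at most 0.00228% in IS libraries. In replacement teeth, AMBN spanned 9.62 to 4261 RPKM (median 1467) and ENAM 7.49 to 1208 RPKM (median 70.6), whereas before initiation AMBN spanned 0 to 2.6 RPKM (median 0.715).

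**Figure D2:**
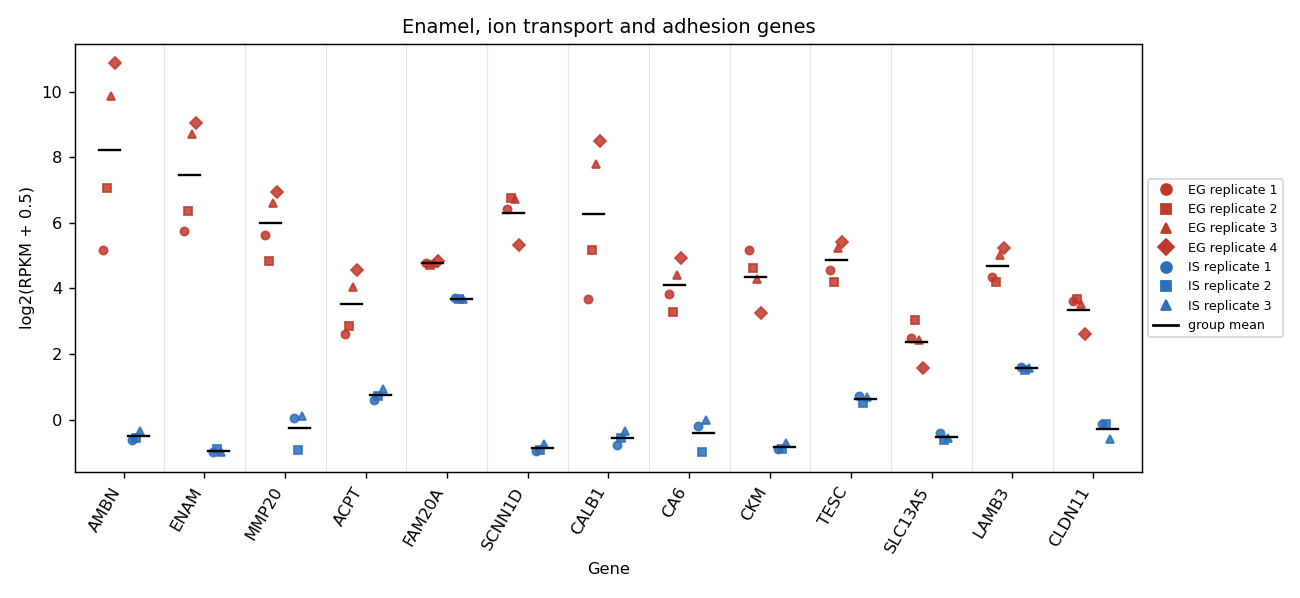
Level of 13 enamel, transport and adhesion genes as log2(RPKM + 0.5) in each EG (red) and IS (blue) library, with the group mean as a black line. No IS point reaches any EG point of the same gene. AMBN, ENAM and CALB1 are highest in EG replicate 4, while SCNN1D, CKM and CLDN11 are lowest there.

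Several genes for moving ions and buffering calcium rose too. SCNN1D encodes the delta subunit of the epithelial sodium channel. It had 84.7, 107, 106 and 39.4 RPKM in EG replicates 1 to 4, against 0.0153, 0.0316 and 0.103 RPKM in IS replicates 1 to 3, higher by 7.17 ± 0.31 (SE, adjusted p = 2.01e-05). On the log2 scale the gap between groups was larger than the spread within either, though in RPKM the EG libraries spread more widely than that gap. EG replicate 4 was the lowest of the EG libraries. CALB1 encodes calbindin-D28k, the calcium-buffering protein that marks ameloblasts. Its level was 12.3, 35.3, 220.1 and 363 RPKM in EG replicates 1 to 4, against 0.0866, 0.179 and 0.29 RPKM in IS replicates 1 to 3 (6.84 ± 1.01 SE, adjusted p = 0.00531), so its EG libraries differed from each other almost as AMBN's did. The related calcium-binding protein gene CALB2 rose too (2.47, adjusted p = 0.00473) and was named after its values were seen. CA6, the secreted carbonic anhydrase gene, had 13.7, 9.28, 20.8 and 29.9 RPKM in EG replicates 1 to 4, against 0.37, 0 and 0.502 RPKM in IS replicates 1 to 3 (4.51 ± 0.38 SE, adjusted p = 0.000372). TESC, the gene of a calcium-binding partner of sodium-proton exchangers, had 23.4, 18, 37.1 and 41.8 RPKM in EG replicates 1 to 4, against 1.16, 0.909 and 1.1 RPKM in IS replicates 1 to 3 (4.22 ± 0.27 SE, adjusted p = 0.000106).

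CKM encodes muscle creatine kinase, which regenerates ATP. It had 35.3, 24.2, 19.2 and 8.99 RPKM in EG replicates 1 to 4, against 0.0334, 0.0345 and 0.112 RPKM in IS replicates 1 to 3, highest in EG replicate 1 (5.17 ± 0.37 SE, adjusted p = 0.00016). Of the 3 skeletal muscle genes tested it alone was called, the other 2 being ACTA1 (-0.36, adjusted p = 0.196) and MYLPF (-0.31, adjusted p = 0.394), and the muscle genes MYOD1, MYOG, TTN and NEB stayed under 1 RPKM in all 7 libraries. SLC13A5, the citrate transporter gene whose loss causes enamel defects in humans, had 5.08, 7.67, 4.94 and 2.46 RPKM in EG replicates 1 to 4, against 0.26, 0.144 and 0.179 RPKM in IS replicates 1 to 3 (2.91 ± 0.30 SE, adjusted p = 0.00104). Of 27 tested transport and calcium genes, a list that includes CKM, 10 were called higher and 0 lower, beside 5.01% and 2.59% of all genes. Of this list SCNN1D, CA6, CKM and SLC13A5 were under 1 RPKM in every IS library. The same holds for the calcium-binding protein genes CALB1 and CALB2 described above. They passed the filter only through EG, which favours a higher call. The median of the list was 0.48, and 9 to 11 members were called higher when any 1 library was left out. SLC26A3, CA14 and AQP5 were listed at 0 in all 7 libraries. In replacement teeth SCNN1D reached 919 to 5430.4 RPKM (median 3479) and CKM 74 to 123 RPKM (median 89.1).

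The genes with symbols and the greatest rises, of which 11 are described, fell into different patterns within EG. In 7 of them, AMBN, ENAM, CALB1, MMP20, CA6, TESC and SOX21, EG replicate 4 was the highest of the EG libraries. In the other 4, SCNN1D, CKM, CLDN11 and CPLX2, EG replicate 4 was the lowest. CPLX2 encodes complexin-2, a regulator of vesicle release, and had 18.2, 10.02, 7.33 and 5.39 RPKM in EG replicates 1 to 4, against 0.283, 0.422 and 0.176 RPKM in IS replicates 1 to 3 (3.63 ± 0.34 SE, adjusted p = 0.000722). FGF3, the fibroblast growth factor gene of the tooth bud, also had its lowest EG value in replicate 4, with 59.3, 38, 22.8 and 6.73 RPKM in EG replicates 1 to 4, against 34.3, 9.5 and 25.1 RPKM in IS replicates 1 to 3. The EG and IS ranges of FGF3 overlapped and it was not called (0.27 ± 0.68 SE, adjusted p = 0.845). Its sign turned without EG replicate 1 (-0.15), without IS replicate 2 (-0.26) and with array weights (-0.19).

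Several epithelial attachment and cell contact genes rose as well. LAMB3 encodes the beta chain of laminin-332, the basement membrane laminin that anchors epithelium and that ameloblasts also deposit on enamel. LAMB3 had 19.8, 17.7, 31.8 and 37.4 RPKM in EG replicates 1 to 4, against 2.55, 2.36 and 2.5 RPKM in IS replicates 1 to 3 (3.12 ± 0.24 SE, adjusted p = 0.000231). LAMA3, the gene of the alpha chain, was not called. It had 10.4, 10.5, 20.2 and 24.4 RPKM in EG replicates 1 to 4, against 13.9, 14.7 and 14.9 RPKM in IS replicates 1 to 3, with EG values on both sides of the IS values (0.075 ± 0.29 SE, adjusted p = 0.901), and was named after its values were seen. COL17A1, a hemidesmosome collagen gene, fell to 98.2, 81.6, 106 and 107 RPKM in EG libraries, against 152, 142 and 149 RPKM in IS libraries (-0.59 ± 0.11 SE, adjusted p = 0.0168). Without IS replicate 3 it was not called (adjusted p = 0.0641), nor in the fit with the PIS libraries (0.8285). The integrin gene ITGA4 rose (1.01, adjusted p = 0.00878) and FREM1, a basement membrane protein gene of epithelial-mesenchymal contact, fell (-0.87, adjusted p = 0.0143). The first call was lost with the PIS libraries in the fit (adjusted p = 0.192) and the second without IS replicate 3 (0.0616). Of 40 basement membrane and integrin genes 6 were higher and 2 lower, beside 5.01% and 2.59% of all genes, with a median of 0.11. ITGA4, under 1 RPKM in every IS library, passed the filter only through EG, which favours a higher call.

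CLDN11, a tight junction claudin gene, had 11.6, 12.4, 11 and 5.59 RPKM in EG replicates 1 to 4, against 0.404, 0.418 and 0.164 RPKM in IS replicates 1 to 3 (3.64 ± 0.26 SE, adjusted p = 0.00016). The gap junction genes GJA1 (connexin 43) and GJB2 (connexin 26) rose by 1.69 ± 0.23 (SE, adjusted p = 0.00393) and 2.01 ± 0.22 (SE, adjusted p = 0.00144). GJA1, with 241 ± 50.9 RPKM in EG and 75.1 ± 21.5 RPKM in IS (SD, n = 4 and 3), was the more abundant of the pair, GJB2 having 18.4 ± 3.89 RPKM in EG and 4.22 ± 1.29 RPKM in IS. TJP3, a tight junction scaffold gene, rose by 1.003 ± 0.16 (SE, adjusted p = 0.00826), a call lost with the PIS libraries in the fit (adjusted p = 0.0692). Among 35 tested junction genes 8 were higher and 0 lower, beside 5.01% and 2.59% of all genes, with a median of 0.29. CLDN11, under 1 RPKM in every IS library, passed the filter only through EG, which favours a higher call. In the oral epithelium list, which shares LAMB3, COL17A1 and CLDN7 with these lists, 4 of 24 were higher and 1 lower, beside the same 5.01% and 2.59%, with a median of 0.37. CLDN7 was only slightly higher (0.45, adjusted p = 0.039), and its call was lost in 7 of 17 alternatives, with adjusted p = 0.0607 to 0.126 when it was lost by leaving out EG replicate 1, 2, 3 or 4 or IS replicate 2 or 3. Of 5 tested cornified epithelium genes 1 was higher, beside 5.01% of all genes. This was the cell envelope gene PPL (0.85, adjusted p = 0.0353). Leaving out EG replicate 1, 3 or 4 or IS replicate 2 or 3 ended that call (adjusted p = 0.0586 to 0.0848). PPL was also not called without the filter on low values (adjusted p = 0.0625), and with the PIS libraries in the fit neither PPL (0.327) nor CLDN7 (0.412) was. All 5 tested cornified genes had a positive log2 fold change, beside 59.4% of all genes, with a median of 0.48. An unadjusted p under 0.05 by limma was found for 4 of the 5, beside 24.8% of all genes. The terminal keratinocyte genes KRT10, TGM3 and SPINK5 were under 1 RPKM in all 7 libraries.

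Several transcription factor genes of dental epithelium were higher in EG. SOX21, a SOX gene that in mice keeps ameloblasts in their epithelial fate, had 9.93, 6.68, 9.06 and 12.1 RPKM in EG replicates 1 to 4, against 0.0647, 0.10 and 0 RPKM in IS replicates 1 to 3, higher by 4.14 ± 0.19 (SE, adjusted p = 2.1e-05). SATB1, a chromatin organiser gene, had 36.5, 23.5, 37.7 and 36.3 RPKM in EG replicates 1 to 4, against 4.34, 4.71 and 5.26 RPKM in IS replicates 1 to 3 (2.67 ± 0.17 SE, adjusted p = 0.000106), with EG replicate 2 below the other EG libraries. DLX3, the homeobox gene mutated in the human tricho-dento-osseous syndrome of hair and enamel, had 198, 107, 139 and 138 RPKM in EG replicates 1 to 4, against 49.7, 29.3 and 40.5 RPKM in IS replicates 1 to 3 (1.85 ± 0.23 SE, adjusted p = 0.00227). RUNX1, a runt-domain factor gene, was higher by 0.88 ± 0.12 (SE, adjusted p = 0.00456). With the PIS libraries in the fit the calls of DLX3 (adjusted p = 0.126) and RUNX1 (0.124) were lost. SP6, whose product epiprofin drives dental epithelium differentiation, had 151, 103, 111 and 106 RPKM in EG replicates 1 to 4, against 58.4, 10.3 and 44.5 RPKM in IS replicates 1 to 3 (1.93 ± 0.50 SE, adjusted p = 0.0494). IS replicate 2 was well under the other IS libraries for SP6, and its call was lost in 12 of 17 alternatives, among them the fit with the PIS libraries (adjusted p = 0.434). Leaving out EG replicate 1, 2, 3 or 4 gave adjusted p = 0.106, 0.0848, 0.106 and 0.0841, and leaving out IS replicate 3 gave 0.076.

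Of 30 tested genes of this kind 8 were higher and 0 lower, beside 5.01% and 2.59% of all genes, with a median of 0.30. Of the 30, 3 were higher with the PIS libraries in the fit. The remaining 3 called members, named after their values were seen, were MSX2 (1.63, adjusted p = 0.0107), DLX4 (1.81, adjusted p = 0.0134) and BARX2 (1.91, adjusted p = 0.00927), all homeobox genes. BARX2 and SOX21 were under 1 RPKM in every IS library and passed the filter only through EG, which favours a higher call. When the PIS libraries were in the fit MSX2 (adjusted p = 0.362) and DLX4 (0.244) were not called. SOX2, which marks the progenitor cells of the lamina, was at 1.09, 1.84, 2.28 and 1.92 RPKM in EG and 2.44, 2.68 and 2.75 RPKM in IS. All 4 EG values were under the IS values, but the gene was not called (-0.48 ± 0.19 SE, adjusted p = 0.162). In the stem cell niche list 1 of 17 was called higher and 0 lower, beside 5.01% and 2.59% of all genes, and the median was 0.11. This was the adhesion gene ALCAM, higher by 0.53 ± 0.092 (SE, adjusted p = 0.0105). The ALCAM call was lost with the PIS libraries in the fit (adjusted p = 0.401).

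**Figure D3:**
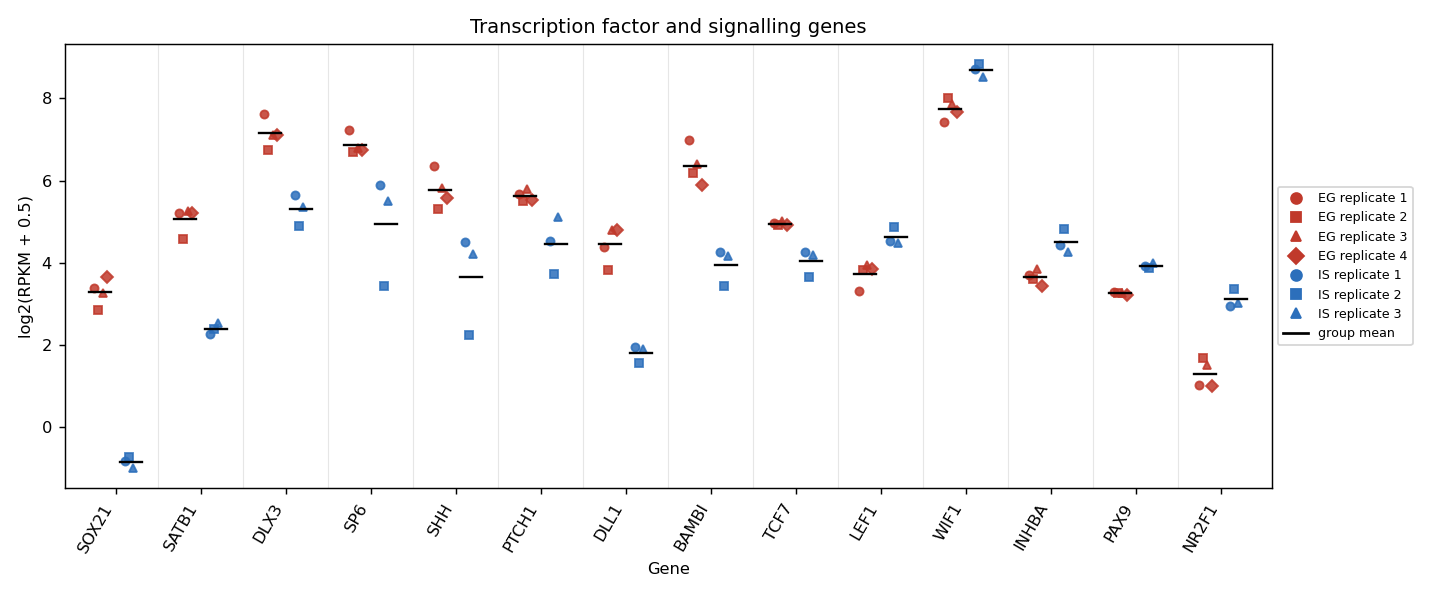
Level of 14 transcription factor and signalling genes as log2(RPKM + 0.5) in each EG (red) and IS (blue) library, with the group mean as a black line. SOX21, SATB1, DLL1 and BAMBI stand clear of IS in every EG library, and LEF1, WIF1, INHBA, PAX9 and NR2F1 stand below it. IS replicate 2 is low for SP6, SHH and PTCH1.

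The hedgehog ligand gene SHH and the receptor gene PTCH1 were higher in EG. SHH, which signals from the tooth epithelium, had 82, 38.8, 56 and 47.4 RPKM in EG replicates 1 to 4, against 22, 4.23 and 18 RPKM in IS replicates 1 to 3 (2.12 ± 0.49 SE, adjusted p = 0.0357). PTCH1 encodes a receptor of SHH and is itself a target of the pathway. It had 50.7, 45.1, 55.1 and 45.9 RPKM in EG replicates 1 to 4, against 22.5, 12.7 and 34.2 RPKM in IS replicates 1 to 3 (1.17 ± 0.27 SE, adjusted p = 0.0342). For both genes IS replicate 2 was the lowest library. KIF7, a ciliary regulator of the GLI factors, was higher by 0.48 ± 0.11 (SE, adjusted p = 0.0377), whereas GLI1 (0.34, adjusted p = 0.329), a target gene, and SMO (0.16, adjusted p = 0.456), the signal transducer, were not called. In all, 4 of 16 hedgehog genes were higher and 0 lower, beside 5.01% and 2.59% of all genes, with a median of 0.099. When any 1 library was left out, 1 to 3 were higher. The SHH call was lost without EG replicate 1, 2, 3 or 4 or IS replicate 3 (adjusted p = 0.054 to 0.0846), that of PTCH1 without EG replicate 1, 2, 3 or 4 or IS replicate 1 (0.0568 to 0.0912) and that of KIF7 without EG replicate 1 or 3 or any IS replicate (0.0775 to 0.101). In the fit with the PIS libraries SHH, PTCH1 and KIF7 were not called (adjusted p = 0.091 to 0.397). KIF7 was not called after median-ratio scaling (adjusted p = 0.0736).

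WNT pathway genes moved in both directions. Among ligands and secretion genes 5 of 16 were higher and 1 lower, beside 5.01% and 2.59% of all genes, with a median of 0.26. WNT5B, a noncanonical ligand gene, had 12.3, 13.2, 13 and 12.2 RPKM in EG replicates 1 to 4, against 8.35, 6.7 and 6.94 RPKM in IS replicates 1 to 3 (0.76 ± 0.10 SE, adjusted p = 0.00404). RSPO4, the R-spondin gene that boosts WNT receptor signalling, had 167, 133, 98.2 and 107 RPKM in EG replicates 1 to 4, against 37, 79.4 and 40.5 RPKM in IS replicates 1 to 3 (1.32 ± 0.28 SE, adjusted p = 0.0224). WNT7A and WNT16 rose by 1.22 ± 0.26 (SE, adjusted p = 0.0228) and 1.03 ± 0.17 (SE, adjusted p = 0.00992). The other called ligands, named after their values were seen, were WNT3A, higher (0.91, adjusted p = 0.0319), and WNT2, lower (-1.03, adjusted p = 0.0476). Leaving out any 1 of EG replicates 1, 3 and 4 or of the IS libraries ended the WNT3A call (adjusted p = 0.0656 to 0.0935), and leaving out any 1 of EG replicates 1, 2 and 3 or of the IS libraries ended the WNT2 call (0.0576 to 0.113). The RSPO4 call was lost without EG replicate 2 (adjusted p = 0.0565), IS replicate 1 (0.0519) or IS replicate 3 (0.0887). The WNT7A call was lost without EG replicate 1 (adjusted p = 0.0565), EG replicate 3 (0.0608) or IS replicate 2 (0.076). Once the PIS libraries were added, WNT7A (adjusted p = 0.226), WNT16 (0.394), WNT3A (0.249) and WNT2 (0.21) were not called.

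On the receiving side 3 of 36 receptor, target and inhibitor genes were higher and 4 lower, beside 5.01% and 2.59% of all genes. The median of the list was -0.14. The TCF family split. LEF1, a nuclear effector gene of WNT signalling in the bud, fell to 9.44, 13.7, 14.9 and 13.9 RPKM in EG libraries, against 22.8, 28.9 and 21.9 RPKM in IS libraries (-0.90 ± 0.17 SE, adjusted p = 0.0148). TCF7, its paralog, was higher, with 30.8, 29.6, 31.8 and 29.8 RPKM in EG replicates 1 to 4, against 18.8, 12.1 and 17.8 RPKM in IS replicates 1 to 3 (0.92 ± 0.15 SE, adjusted p = 0.00776). The inhibitor genes WIF1, NKD1 and SFRP2 were lower. WIF1, which binds WNT ligands, had 172, 256, 233 and 204 RPKM in EG replicates 1 to 4, against 421, 456 and 366 RPKM in IS replicates 1 to 3 (-0.95 ± 0.15 SE, adjusted p = 0.00733), and was the most abundant called gene of the list. NKD1, an intracellular feedback inhibitor gene, fell by 0.59 on the log2 scale (adjusted p = 0.00662), and SFRP2, a secreted frizzled-related protein gene, had 5.17, 15.3, 8.16 and 12.1 RPKM in EG replicates 1 to 4, against 23, 69.6 and 30.4 RPKM in IS replicates 1 to 3 (-1.90 ± 0.42 SE, adjusted p = 0.0296). FZD5, a frizzled receptor gene, rose to 2.22, 3.75, 4.1 and 4.18 RPKM in EG libraries, against 0.994, 1.12 and 0.691 RPKM in IS libraries (1.48 ± 0.21 SE, adjusted p = 0.00492). DKK1, a WNT inhibitor gene named after its values were seen, went the other way from WIF1, with 9.05, 7.11, 3.61 and 2.28 RPKM in EG replicates 1 to 4, against 1.1, 0.067 and 0.834 RPKM in IS replicates 1 to 3 (2.33 ± 0.48 SE, adjusted p = 0.0205). AXIN2, the general feedback target, overlapped between groups and was not called (-0.32, adjusted p = 0.167). It was called lower without IS replicate 1 (-0.46, adjusted p = 0.045) and with array weights (0.039). The LEF1, TCF7, NKD1 and DKK1 calls were lost with the PIS libraries in the fit (adjusted p = 0.305, 0.154, 0.0749 and 0.0692). Leaving out EG replicate 1 or 3 or IS replicate 2 or 3 ended the SFRP2 call (adjusted p = 0.0529 to 0.0769), and leaving out EG replicate 2 or IS replicate 2 or 3 ended that of DKK1 (0.0521 to 0.058).

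Among BMP, activin and TGF-beta genes the greatest rise was in an inhibitor. BAMBI, a membrane decoy receptor gene, had 127, 72.4, 84 and 58.4 RPKM in EG replicates 1 to 4, against 18.7, 10.3 and 17.4 RPKM in IS replicates 1 to 3 (2.41 ± 0.28 SE, adjusted p = 0.00183). SMAD6, an intracellular BMP inhibitor gene, rose by 0.79 ± 0.12 (SE, adjusted p = 0.00536), and SMAD9, a BMP signal transducer gene, rose by 1.29 ± 0.22 (SE, adjusted p = 0.0107). INHBA, the activin A subunit gene, fell to 12.5, 11.6, 13.8 and 10.3 RPKM in EG libraries, against 21.1, 27.6 and 18.7 RPKM in IS libraries (-0.86 ± 0.15 SE, adjusted p = 0.0109). BMP4 overlapped between groups and was not called (0.22, adjusted p = 0.644). Of 33 members 3 were higher and 2 lower, beside 5.01% and 2.59% of all genes, with a median of 0.099. SMAD9, under 1 RPKM in every IS library, passed the filter only through EG, which favours a higher call. The second lower member, named after its values were seen, was BMP3 (-0.92, adjusted p = 0.0121). SMAD6 (adjusted p = 0.121) and BMP3 (0.181) were not called with the PIS libraries in the fit, nor BMP3 without IS replicate 3 (0.0518).

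DLL1 was higher among Notch genes. This ligand gene had 20.2, 13.8, 27.2 and 27.3 RPKM in EG replicates 1 to 4, against 3.35, 2.44 and 3.2 RPKM in IS replicates 1 to 3 (2.65 ± 0.23 SE, adjusted p = 0.000463). It was the only 1 of 16 tested Notch genes called, near the 7.60% of all genes, and the list's median was -0.011. NR2F1, an orphan nuclear receptor gene, fell to 1.52, 2.69, 2.33 and 1.48 RPKM in EG libraries, against 7.15, 9.83 and 7.58 RPKM in IS libraries (-1.81 ± 0.20 SE, adjusted p = 0.00144). RDH10, which makes retinal for retinoic acid synthesis, rose by 1.07 ± 0.16 (SE, adjusted p = 0.0050). They were the called members of the 10 tested retinoid and NR2F genes, beside 7.60% of all genes called, and the list had a median of -0.075. FGF1 was the only called gene of 21 in the FGF list, beside 7.60% of all genes called, and the list's median was -0.064. It had 2.23, 2.8, 2.98 and 2.95 RPKM in EG replicates 1 to 4, against 0.78, 0.403 and 1.25 RPKM in IS replicates 1 to 3 (1.35 ± 0.22 SE, adjusted p = 0.00853). With the PIS libraries in the fit FGF1 was not called (adjusted p = 0.113). None of 9 ectodysplasin pathway genes was called, beside 7.60% of all genes. EDA, the ligand gene, was at 4.86, 6.23, 7.06 and 7.56 RPKM in EG and 9.24, 8.46 and 9.06 RPKM in IS (-0.46 ± 0.14 SE, adjusted p = 0.0914). EDAR, its receptor, was at 10.6, 7.26, 9.73 and 13.7 RPKM in EG and 14.1, 7.59 and 13.3 RPKM in IS (-0.15 ± 0.25 SE, adjusted p = 0.752), and its sign changed without IS replicate 1 (0.0039). In that list 2 of 9 genes had an unadjusted p under 0.05 by limma, near the 24.8% of all genes.

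**Figure D4:**
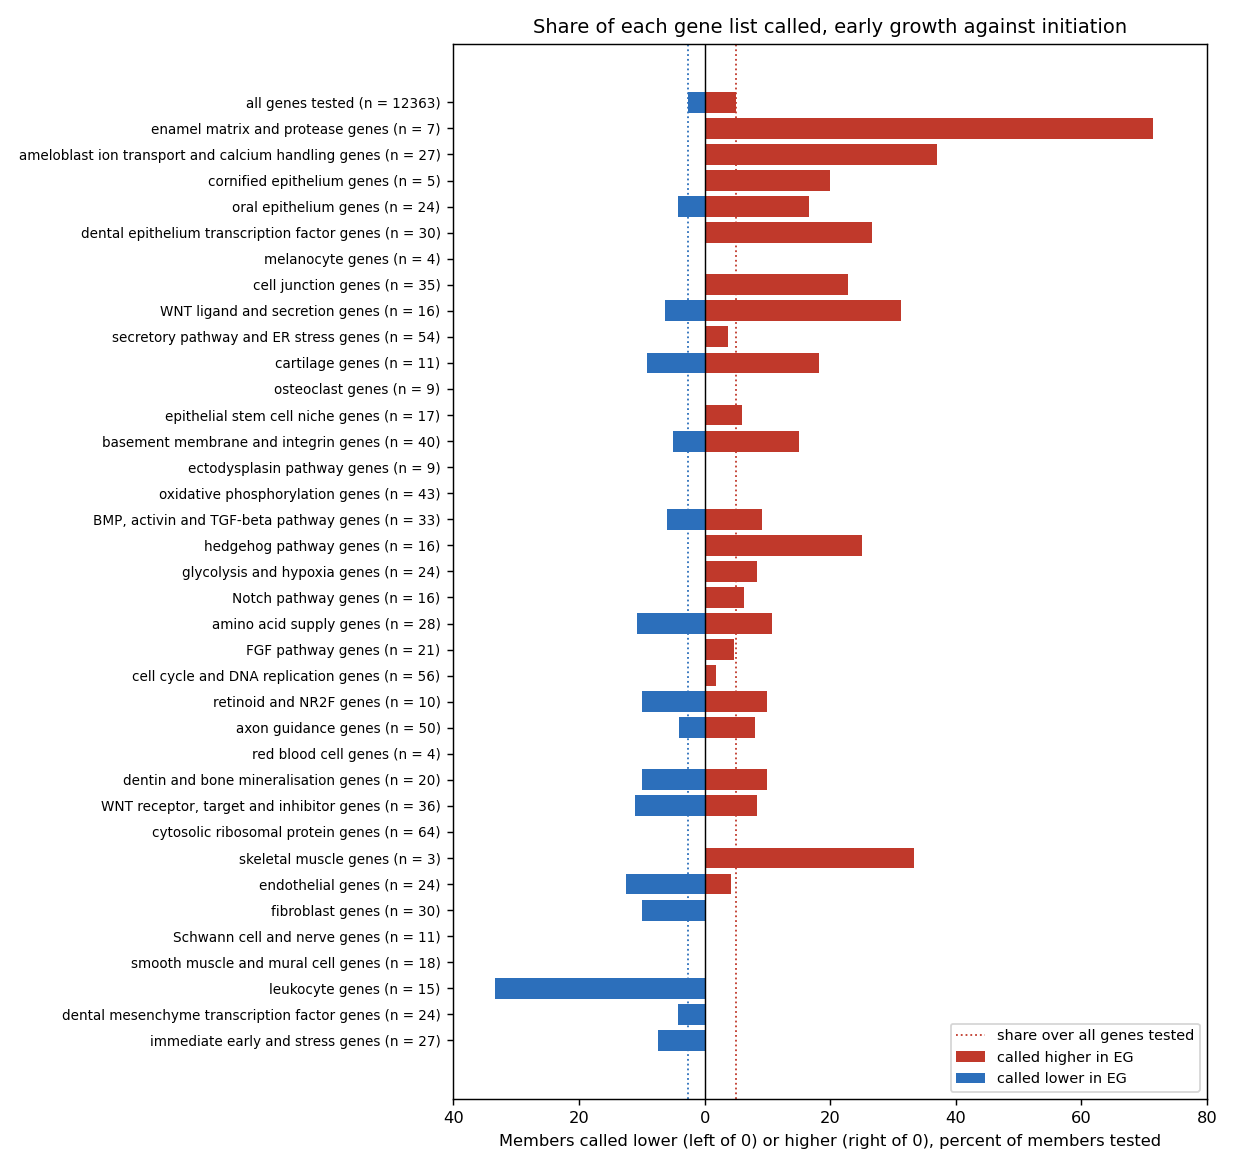
Share of the tested members of each gene list called higher in EG (red, right of 0) or lower in EG (blue, left of 0), in percent, with the number tested in parentheses and lists in order of median log2 fold change. Dotted lines mark the 5.01% and 2.59% of all 12363 tested genes called higher and lower. The enamel list lies farthest to the right, and the leukocyte list lies farthest to the left. Transport, WNT ligand, epithelial transcription factor, hedgehog and junction lists also pass the dotted line on the right, among others. So does the list of 3 tested skeletal muscle genes, through CKM alone.

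The genes that fell most were of mixed function. CGA, the alpha subunit gene shared by glycoprotein hormones, had 2.06, 0.763, 0.852 and 1.35 RPKM in EG replicates 1 to 4, against 8.62, 11.5 and 5.35 RPKM in IS replicates 1 to 3 (-2.35 ± 0.30 SE, adjusted p = 0.00284). MGP, the gene of matrix Gla protein, an inhibitor of calcification, had 34.7, 98.7, 51.8 and 62.4 RPKM in EG replicates 1 to 4, against 214, 418 and 158 RPKM in IS replicates 1 to 3 (-2.06 ± 0.39 SE, adjusted p = 0.0146). SPP1, the osteopontin gene, had 16.1, 10.6, 12.5 and 10.3 RPKM in EG replicates 1 to 4, against 21.4, 98.9 and 39.1 RPKM in IS replicates 1 to 3, the IS libraries differing from each other several-fold (-1.80 ± 0.43 SE, adjusted p = 0.0374). Leaving out any of EG replicates 1 to 4 or IS replicate 3 ended the SPP1 call (adjusted p = 0.0529 to 0.0926), as did a replicate block (0.0756). Other genes of the mineralisation list rose. PHEX, an endopeptidase gene of phosphate control, had 51.5, 45.5, 42.7 and 21.8 RPKM in EG replicates 1 to 4, against 7.4, 8.4 and 8.22 RPKM in IS replicates 1 to 3 (2.20 ± 0.26 SE, adjusted p = 0.00196), and ALPL, alkaline phosphatase, was higher by 0.50 ± 0.11 (SE, adjusted p = 0.0242). The list had 2 of 20 higher and 2 lower, beside 5.01% and 2.59% of all genes, with a median of -0.11. When the PIS libraries were in the fit MGP (adjusted p = 0.138), PHEX (0.0686) and ALPL (0.535) were not called, and ALPL was not called without EG replicate 2, 3 or 4 or IS replicate 1 or 3 (0.0504 to 0.0846).

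Fibroblast genes were lower for 3 of 30 tested members and higher for 0, beside 2.59% and 5.01% of all genes, with a median of -0.45. All EG values were under all IS values for 10 of the 30, beside 8.63% of all genes. FAP, a fibroblast surface protease gene, had 3.66, 6.01, 6.001 and 6.39 RPKM in EG replicates 1 to 4, against 9.95, 13.3 and 11.1 RPKM in IS replicates 1 to 3 (-1.01 ± 0.19 SE, adjusted p = 0.0143). PI16, a marker of adventitial fibroblasts, had 1.62, 0.448, 2.51 and 2.07 RPKM in EG replicates 1 to 4, against 12.8, 4.9 and 6.56 RPKM in IS replicates 1 to 3 (-2.01 ± 0.42 SE, adjusted p = 0.0228), and COL6A2, a collagen VI chain, had 107, 171, 169 and 167 RPKM in EG replicates 1 to 4, against 255, 401 and 246 RPKM in IS replicates 1 to 3 (-0.96 ± 0.22 SE, adjusted p = 0.0326). The PI16 call was lost without IS replicate 1 (adjusted p = 0.0503) or IS replicate 3 (0.0639), and that of COL6A2 without EG replicate 2, 3 or 4 or IS replicate 2 or 3 (0.0523 to 0.0839). With the PIS libraries in the fit PI16 was not called (adjusted p = 0.177). The collagen I gene COL1A1 had 1471, 2435, 2349 and 1994 RPKM in EG replicates 1 to 4, against 1635, 5587 and 2097 RPKM in IS replicates 1 to 3 and was not called (-0.40, adjusted p = 0.559). Of 24 dental mesenchyme transcription factor genes 1 was lower and 0 higher, beside 2.59% and 5.01% of all genes, with a median of -0.64. In 8 of them all EG values were under all IS values, beside 8.63% of all genes. PAX9, needed for tooth development past the bud, was the called member. Its values were tight, at 9.25, 9.07, 9.07 and 8.84 RPKM in EG and 14.5, 14.1 and 15.3 RPKM in IS (-0.66 ± 0.085 SE, adjusted p = 0.00311), and the call was lost with the PIS libraries in the fit (adjusted p = 0.122). MSX1 had 27.3, 42.5, 25.7 and 24.5 RPKM in EG replicates 1 to 4, against 47.2, 72.2 and 40.6 RPKM in IS replicates 1 to 3 and was not called (-0.81 ± 0.24 SE, adjusted p = 0.0734). The call appeared without EG replicate 2 (adjusted p = 0.0317), with a replicate block (0.00824) and with array weights (0.00523). The summed level of the mesenchymal list was 388 to 530.1 RPKM in EG and 469.6 to 740.1 RPKM in IS, highest in IS replicate 2, and its part in the results was not tested.

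Leukocyte genes were lower for 5 of 15 tested members and higher for 0, beside 2.59% and 5.01% of all genes, with a median of -0.58. CD74, the invariant chain of antigen presentation, had 29.9, 45.6, 48.8 and 37.1 RPKM in EG replicates 1 to 4, against 79.1, 67.5 and 71.5 RPKM in IS replicates 1 to 3 (-0.86 ± 0.17 SE, adjusted p = 0.0159). CSF1R, the macrophage growth factor receptor gene, had 1.55, 2.61, 2.73 and 2.77 RPKM in EG replicates 1 to 4, against 4.35, 5.56 and 4.66 RPKM in IS replicates 1 to 3 (-0.90 ± 0.18 SE, adjusted p = 0.0205). ITGAM, an integrin gene of myeloid cells, and CTSS, a lysosomal protease gene of antigen-presenting cells, were lower, with log2 changes of -0.59 ± 0.15 (SE, adjusted p = 0.0448) and -0.85 ± 0.21 (SE, adjusted p = 0.0455). The complement gene C1QC, the fifth, was named after its values were seen (-0.63, adjusted p = 0.0474), and leaving out any 1 of the 7 libraries ended its call (adjusted p = 0.0566 to 0.139). The summed level of 28 listed members was 134 to 168 RPKM in EG and 202 to 223 RPKM in IS, without overlap, and the B cell gene PAX5 was at 0 in all 7 libraries. Without IS replicate 2, 1 member was lower, and with the PIS libraries in the fit 0 were. CD74 was not called without IS replicate 3 (adjusted p = 0.0561), CSF1R without IS replicate 2 (0.0714) or 3 (0.0643), ITGAM without EG replicate 1, 2 or 3 or IS replicate 2 or 3 (0.0773 to 0.135) and CTSS without EG replicate 1, 2 or 4 or IS replicate 2 or 3 (0.0748 to 0.149).

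CTSW, a cathepsin gene of cytotoxic lymphocytes in mammals, fell to 6.1, 14, 9.38 and 14.1 RPKM in EG libraries, against 42.9, 57 and 44.4 RPKM in IS libraries (-2.15 ± 0.27 SE, adjusted p = 0.00248). SRGN, the granule proteoglycan serglycin, had 1.57, 4.49, 5.31 and 5.33 RPKM in EG replicates 1 to 4, against 19.4, 17 and 19.1 RPKM in IS replicates 1 to 3 (-2.13 ± 0.33 SE, adjusted p = 0.00679). For both genes every EG library was far under the lowest IS library, and EG replicate 1 was the lowest. In replacement teeth CTSW spanned 0.0659 to 1.29 RPKM (median 0.419). In the fit with the PIS libraries neither was called (adjusted p = 0.125 and 0.0927). CCDC82, a coiled-coil protein gene, had 5.26, 4.08, 5.08 and 4.66 RPKM in EG replicates 1 to 4, against 22.6, 15.6 and 19.9 RPKM in IS replicates 1 to 3 (-1.90 ± 0.14 SE, adjusted p = 0.000207). LIMK1, a kinase gene that controls actin turnover, had 7.55, 17, 8.92 and 26.5 RPKM in EG replicates 1 to 4, against 33.1, 90.7 and 43.3 RPKM in IS replicates 1 to 3 (-1.90 ± 0.46 SE, adjusted p = 0.0398), with IS replicate 2 the highest. That call was lost without EG replicate 1, 2 or 3 or IS replicate 2 or 3 (adjusted p = 0.0635 to 0.117), after median-ratio scaling (0.0502) and with the PIS libraries in the fit (0.0988).

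**Figure D5:**
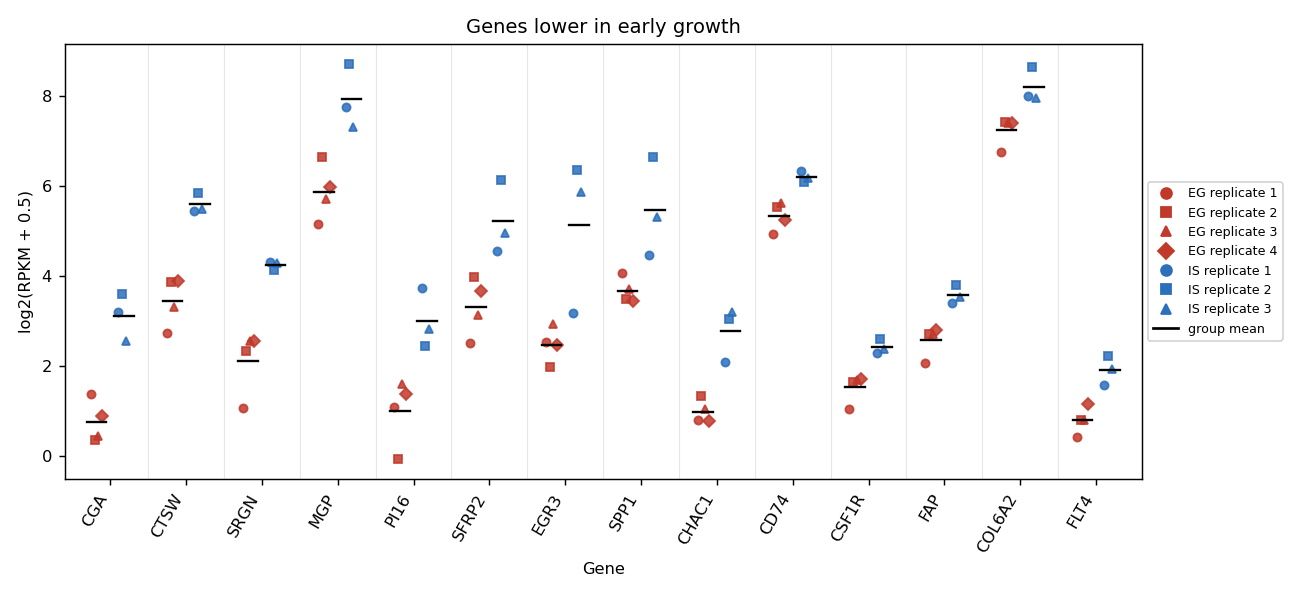
Level of 14 genes called lower in EG as log2(RPKM + 0.5) in each EG (red) and IS (blue) library, with the group mean as a black line. CGA, CTSW and SRGN leave a wide gap between the groups, while EGR3 and SPP1 spread widely within IS, with IS replicate 1 nearest to the EG libraries.

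Of 24 vessel endothelium genes 3 were lower and 1 higher, beside 2.59% lower and 5.01% higher of all genes, with a median of -0.38. FLT4, the lymphatic VEGF receptor gene, and STAB2, a scavenger receptor gene of sinusoidal and lymphatic endothelium, were lower, with log2 changes of -1.12 ± 0.21 (SE, adjusted p = 0.0146) and -0.998 ± 0.21 (SE, adjusted p = 0.0228). EMCN, the endomucin gene, was the higher one, at 13.9, 12.4, 10.6 and 11.1 RPKM in EG libraries, against 5.81, 6.4 and 5.83 RPKM in IS libraries (0.93 ± 0.11 SE, adjusted p = 0.00243). EGFL7, a gene of vessel wall matrix, was lower (-0.46, adjusted p = 0.0466), a call lost in 12 of 17 alternatives. Without IS replicate 2 no member was called lower, FLT4 having adjusted p = 0.0502, STAB2 0.0765 and EGFL7 0.115. Without IS replicate 3 the values were 0.0565, 0.0817 and 0.142, and without EG replicate 2 STAB2 had 0.0523. EGFL7 was also lost without EG replicate 1, 3 or 4 or IS replicate 1 (adjusted p = 0.0593 to 0.132). Once the PIS libraries were added, FLT4, STAB2, EMCN and EGFL7 were not called (adjusted p = 0.192, 0.165, 0.331 and 0.31).

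Of 18 smooth muscle and mural cell genes 0 were called by limma, although 9 had an unadjusted p under 0.05, beside 24.8% of all genes tested, and the median was -0.50. The contractile myosin gene MYH11 had 0.641, 2.19, 1.34 and 1.79 RPKM in EG replicates 1 to 4, against 2.91, 3.69 and 3.39 RPKM in IS replicates 1 to 3 (-1.01 ± 0.27 SE, adjusted p = 0.0546), every EG library under every IS library. It was called without EG replicate 1 (adjusted p = 0.0457) or EG replicate 2 (0.0381). No call was made among 11 Schwann cell and nerve genes, 4 melanocyte genes, 4 red blood cell genes or 9 osteoclast genes, which held 1, 3, 1 and 3 genes with an unadjusted p under 0.05, against the same 24.8% over all genes. The neurotrophin receptor gene NGFR had 3.36, 3.37, 3.06 and 5.34 RPKM in EG replicates 1 to 4, against 4.21, 6.66 and 6.84 RPKM in IS replicates 1 to 3 (-0.58, adjusted p = 0.136). PMEL, a pigment granule gene, had 9.23, 9.56, 8.53 and 9.19 RPKM in EG replicates 1 to 4, against 6.26, 7.92 and 6.07 RPKM in IS replicates 1 to 3 (0.42, adjusted p = 0.059) and was called without IS replicate 2 (adjusted p = 0.0242). HBA1, a haemoglobin gene, had 25.9, 57.4, 37.1 and 39.9 RPKM in EG replicates 1 to 4, against 39.3, 92.7 and 243 RPKM in IS replicates 1 to 3 (-1.31, adjusted p = 0.163), highest in IS replicate 3, and was called without IS replicate 1 (adjusted p = 0.0243). TNFRSF11B, the gene of the osteoclast inhibitor osteoprotegerin, had 42.3, 36.4, 47.5 and 58.5 RPKM in EG replicates 1 to 4, against 28, 27.9 and 36.1 RPKM in IS replicates 1 to 3 (0.57, adjusted p = 0.0751), EG above IS in every library, and was called without EG replicate 2 (adjusted p = 0.047). Among 11 cartilage genes 2 were higher and 1 lower, beside 5.01% and 2.59% of all genes. COL11A2, a fibrillar collagen gene, stayed low, at 1.01, 1.14, 1.69 and 0.777 RPKM in EG and 0.165, 0.20 and 0.136 RPKM in IS (1.28 ± 0.22 SE, adjusted p = 0.00974). It passed the filter only through EG, which favours a higher call. HAPLN1, a hyaluronan link protein gene, rose by 0.88 ± 0.16 (SE, adjusted p = 0.0143), and LECT1, the chondromodulin gene, fell (-0.50, adjusted p = 0.0219). HAPLN1 was not called without IS replicate 3 (adjusted p = 0.0515), nor LECT1 without EG replicate 1, 3 or 4 or IS replicate 1 or 2 (0.0534 to 0.0609). Neither was called with the PIS libraries in the fit (adjusted p = 0.274 and 0.24). The part of these cell types in the epithelial results was not tested.

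Few cell cycle genes and no oxidative phosphorylation genes were called. Of 56 cell cycle and DNA replication genes 1 was called, beside 7.60% of all genes. This was CDKN1B, the gene of the cyclin-dependent kinase inhibitor p27. It had 46.8, 35, 34.7 and 31.5 RPKM in EG replicates 1 to 4, against 22.7, 20.8 and 19.6 RPKM in IS replicates 1 to 3 (0.79 ± 0.14 SE, adjusted p = 0.0115), and the median of the list was -0.072. Of the 56 genes 17 had a positive log2 fold change, beside 59.4% of all genes. CDKN1B was not called when IS replicate 3 was left out (adjusted p = 0.0517) or PIS was added (0.0749). Of 43 oxidative phosphorylation genes 34 had a positive log2 fold change, beside the same 59.4%. None of the 43 was called, with 1 at an unadjusted p under 0.05, beside 24.8% of all genes, and a median of 0.10. That gene, NDUFA6 of complex I, had 53.5, 52.4, 53.2 and 49.1 RPKM in EG replicates 1 to 4, against 48.4, 35.8 and 38.7 RPKM in IS replicates 1 to 3 (0.35, adjusted p = 0.102) and was called without IS replicate 1 (adjusted p = 0.0282). HIF1A, the oxygen-sensing transcription factor gene, had 141, 100.4, 129.8 and 149 RPKM in EG replicates 1 to 4, against 71.5, 40.01 and 68.5 RPKM in IS replicates 1 to 3 (1.14 ± 0.22 SE, adjusted p = 0.0151), and TPI1, a glycolytic enzyme gene, rose by 0.71 ± 0.13 (SE, adjusted p = 0.0127). They were the 2 called of 24 glycolysis and hypoxia genes, beside 5.01% of all genes called higher, and the median was 0.0079. TPI1 was not called without IS replicate 3 (adjusted p = 0.0542).

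Among secretory pathway genes 2 of 54 were called higher and 0 lower, a share under the 5.01% of all genes called higher, with a median of 0.14, and 45 of the 54 had a positive log2 fold change, beside 59.4% of all genes. The called genes were SEC11C, a signal peptidase subunit (0.40, adjusted p = 0.0451), and MANF, an endoplasmic reticulum stress gene (0.40, adjusted p = 0.0422). Both calls were fragile. Leaving out EG replicate 1, 3 or 4 or IS replicate 2 or 3 ended both (adjusted p = 0.0718 to 0.125 for SEC11C and 0.0756 to 0.129 for MANF). Neither was called with the PIS libraries in the fit (adjusted p = 0.115 and 0.163). None of 64 ribosomal protein genes was called, but 24 had an unadjusted p under 0.05, beside 24.8% of all genes, 33 had all EG values under all IS values, beside 8.63% of all genes, and the median was -0.22. After median-ratio scaling 5 of the 64 were called lower.

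Among 28 tested genes of the amino acid supply list, which also holds VLDLR and CHAC1, 3 were higher and 3 lower. These counts stand beside 5.01% and 2.59% of all genes, and the median was -0.061. VLDLR, a lipoprotein receptor gene, had 25.5, 20.6, 25.5 and 23.3 RPKM in EG replicates 1 to 4, against 7.49, 5.35 and 7.68 RPKM in IS replicates 1 to 3 (1.73 ± 0.14 SE, adjusted p = 0.000312). CHAC1, which degrades glutathione in the amino acid stress response, had 1.22, 1.99, 1.55 and 1.21 RPKM in EG replicates 1 to 4, against 3.75, 7.75 and 8.68 RPKM in IS replicates 1 to 3 (-1.80 ± 0.27 SE, adjusted p = 0.00537), IS replicate 1 lying nearest to EG. PHGDH, the first enzyme of serine synthesis, fell (-0.62, adjusted p = 0.0081), and SLC1A5, a glutamine transporter gene, rose by 0.91 ± 0.20 (SE, adjusted p = 0.0265). STC2, a stanniocalcin gene named after its values were seen, was lower (-1.35, adjusted p = 0.0348). The SLC1A5 call was lost without EG replicate 1, 2 or 3 or IS replicate 3 (adjusted p = 0.0522 to 0.0695), and that of STC2 without EG replicate 1, 3 or 4 or IS replicate 1 or 3 (0.0515 to 0.121). With the PIS libraries in the fit PHGDH, SLC1A5 and STC2 were not called (adjusted p = 0.136, 0.359 and 0.428).

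Immediate early genes, which respond within minutes to growth factors and to tissue handling, varied widely within IS. EGR3, such a transcription factor gene, had 5.23, 3.43, 7.09 and 4.99 RPKM in EG replicates 1 to 4, against 8.51, 80.6 and 58 RPKM in IS replicates 1 to 3 (-2.66 ± 0.65 SE, adjusted p = 0.0416). IS replicate 1 lay close to the EG libraries and far from the other IS libraries. The summed level of the 28 listed genes was 543 to 1986 RPKM in EG, lowest in EG replicate 2, and 576 to 6309 RPKM in IS, lowest in IS replicate 1. HSPB1, a small heat shock protein gene, was lower (-1.21, adjusted p = 0.0474). Of 27 tested members 2 were lower and 0 higher, beside 2.59% and 5.01% of all genes, with a median of -0.82. Without IS replicate 1, 13 were lower, and without IS replicate 2, 0 were. The EGR3 call was lost without any 1 of the EG libraries (adjusted p = 0.0746 to 0.0901) and without IS replicate 2 (0.122) or 3 (0.138). That of HSPB1 was lost without EG replicate 1, 3 or 4 or IS replicate 2 or 3 (0.0698 to 0.148). Neither was called with the PIS libraries in the fit (adjusted p = 0.269 and 0.134).

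Of 50 guidance cue genes 4 were higher and 2 lower, close to the 5.01% and 2.59% of all genes, with a median of -0.084. The 4 called members with the smallest p were semaphorin genes, which encode repulsive or attractive cues for axons and other cells. They were picked by p, and the semaphorin family was not compared with the other guidance genes. SEMA3E, a secreted member, had 9.85, 5.13, 5.99 and 5.35 RPKM in EG replicates 1 to 4, against 1.84, 1.17 and 1.72 RPKM in IS replicates 1 to 3 (1.74 ± 0.22 SE, adjusted p = 0.00312). SEMA4F had 11.4, 11.2, 12.5 and 13.2 RPKM in EG replicates 1 to 4, against 6.73, 5.8 and 6.21 RPKM in IS replicates 1 to 3 (0.90 ± 0.10 SE, adjusted p = 0.00183), and SEMA7A, a membrane-anchored member, rose by 0.96 ± 0.14 (SE, adjusted p = 0.00563). SEMA5B went the other way, with 2.96, 2.68, 3.97 and 4.19 RPKM in EG replicates 1 to 4, against 6.46, 8.62 and 6.47 RPKM in IS replicates 1 to 3 (-0.97 ± 0.17 SE, adjusted p = 0.0118). When the PIS libraries were in the fit SEMA3E (adjusted p = 0.233) and SEMA5B (0.269) were not called.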

How the data were processed

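RNA was extracted with Trizol and libraries were made with the Illumina TruSeq RNA V2 kit, per the labels' protocols. The authors deposited 1 table of RPKM values, with the number of alignments per library in a row of its own. TopHat2 2.1.0 and Partek 3 were used, per the submitters' processing notes, which give neither a role. For the genome build, the annotation and any use of strand, nothing is stated in the sources used here. No coordinates are therefore printed, and overlapping, antisense and paralogous genes may share reads. Of 20703 genes, 6042 had bare model identifiers, 782 had LOC numbers, 19 had symbols turned into dates, and 11479 symbols matched the RefSeq gene table.

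Groups came from titles and descriptions. The 7 libraries alone entered the model, after conversion to log2(RPKM + 0.5). R 4.3.3 and limma 3.58.1 gave group means and empirical Bayes variances with a mean-variance trend. It covered 12363 genes that reached 1 RPKM in 3 or more libraries. Genes under 1 RPKM throughout 1 group passed only through the other group, which favours a call in that direction. Benjamini-Hochberg adjustment ran over all of them and the threshold was 0.05. Values are RPKM, so no count test or counting interval was used. Data were simulated with 12363 genes and these group sizes. Of 100 genes changed by 1 and 100 changed by 2 on the log2 scale, 71% and 96% were recovered, with 9 false calls among unchanged genes. Fewer genes were changed than were called in the real data. The simulated noise was independent between genes and libraries, and each gene had the same spread in every library. Deviations shared by many genes or larger in some libraries were not simulated, so these figures may not hold for the real libraries. No columns were identical.

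The text names the 12 greatest rises and falls among called genes with symbols and non-overlapping groups, up to 4 called members with the smallest p per list (or the tested member with the smallest p), and anchor genes (SHH, SOX2, LEF1, AXIN2, BMP4, MSX1, SP6, FGF3 and EDAR). Other genes, uncalled list members and tissue markers included, were chosen after their values were seen. Some genes that fall under this rule are left out of the text. The lists (36) and the comparison were chosen with earlier results of these data known, so no list is independent evidence. As alternatives, the pseudocount was set to 0.1 or 1, the filter to none or to a mean of 5 RPKM, and the scaling to median ratios or quantiles. Array weights were used, the trend was dropped, the 5 PIS libraries joined the fit, the replicate number was a block, or 1 library was left out.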

Additional observations from a re-analysis of the deposited data

Results flagged for a closer look

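In 10 of 136 genes examined, 1 EG library lay far from the other 3, its gap to the nearest being past Dixon's critical value for 4 values. Chance flags about 1 in 20 groups of 4, and IS, with 3 libraries, was not examined.

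In EG replicate 1, SP6 (151 RPKM) and the transferrin receptor gene TFR2 (1.57 RPKM) were highest, and FAP (3.66 RPKM), COL6A2 (107 RPKM) and CSF1R (1.55 RPKM) were lowest. In EG replicate 2, MSX1 (42.5 RPKM) was highest, and SATB1 (23.5 RPKM), GJA1 (165 RPKM) and WNT3A (1.83 RPKM) were lowest. In EG replicate 4, NGFR (5.34 RPKM) was highest. EG replicate 1 also had the lowest summed level of the fibroblast and leukocyte lists among the EG libraries, and EG replicate 2 the lowest of the oral epithelium list, and the part of these cell types in the values was not tested.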

How the results depend on the processing

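Against 940 calls, the count was 503 with a mean of at least 5 RPKM, 3965 with array weights (2403 higher and 1562 lower) and 285 with the 5 PIS libraries in the fit (215 higher and 70 lower). Other processing, with every library kept and no replicate block, gave 891 to 977, the lower end without a filter and the upper end under quantile normalization. Leaving out 1 library gave 498 to 1048 calls. The count moved by over 1.5 times without EG replicate 3 (498), IS replicate 2 (587) or IS replicate 3 (522). Array weights gave EG replicate 3 a weight of 7.52 and IS replicate 2 a weight of 0.287. The cause of these shifts was not tested.

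With replicate number as a block over pairs 1 to 3, 1414 genes were called (867 higher and 547 lower). Of them, 560 and 266 were shared with the unblocked calls. EG replicate 4, which has no IS partner, adds nothing to the fold change of this fit. The log2 fold change of EGR3 was -2.65 both here and without EG replicate 4. The deviations of same-numbered libraries correlated at 0.230, 0.167 and 0.0849 across genes, all positive but not all over 0.1. EG replicates 1, 2 and 3 each correlated best with the IS library of the same number. IS replicate 1 correlated best with EG replicate 1. IS replicates 2 and 3 correlated best with EG libraries of other numbers (0.265 with EG replicate 4 and 0.211 with EG replicate 1). These values do not settle whether the numbers mark pairs, and the numbers were not taken as pairs.

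Of 110 called genes among 136 examined singly, 42 kept their call under every alternative that tested them. The PIS libraries in the fit ended 62 of these calls, leaving out IS replicate 3 ended 37, and leaving out any other single library ended 12 to 25. Signs turned only in genes not called. The log2 fold change of FGF3 became -0.19 with array weights and ran from -0.26 to 0.86 over the libraries left out. EDAR ran from -0.42 to 0.0039, FTL from -0.050 to 0.17, HPGD from -0.20 to 0.14 and LAMA3 from -0.14 to 0.25. FTL became -0.0051 after median-ratio scaling, NCOA4 -0.11 with array weights and LAMA3 -0.14 with the block. Genes that reached 1 RPKM in fewer than 3 libraries were not tested, so changes among them would not be seen.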

Other observations

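Several iron uptake and storage genes, from a list put together after values were seen, rose in EG. Of 22 listed genes 16 were tested, with 6 higher, 1 lower and 9 not called. The shares over all genes tested were 5.01% higher and 2.59% lower, but a list made this way is no independent evidence. TFRC, the transferrin receptor that takes iron into cells, had 38.2, 30.4, 55.8 and 71.1 RPKM in EG replicates 1 to 4, against 12.4, 6.88 and 11.2 RPKM in IS replicates 1 to 3 (2.18 ± 0.30 SE, adjusted p = 0.00398). ACO1, whose product turns into an iron-sensing RNA-binding protein, had 91.1, 99.9, 122 and 161 RPKM in EG replicates 1 to 4, against 34.7, 18.4 and 35.1 RPKM in IS replicates 1 to 3 (2.02 ± 0.26 SE, adjusted p = 0.00312). The metal transporter genes SLC39A14, SLC39A8 and SLC11A2 rose by 1.89, 1.52 and 1.12 (limma, adjusted p = 0.00505, 0.00123 and 0.00462). FTH1, the ferritin heavy chain gene that stores iron, had 266, 245, 291 and 249 RPKM in EG replicates 1 to 4, against 118, 159.9 and 173 RPKM in IS replicates 1 to 3 (0.82 ± 0.14 SE, adjusted p = 0.0103), whereas the light chain gene FTL was not called (0.059, adjusted p = 0.819). CYBRD1, a ferric reductase gene, was lower (-0.52, adjusted p = 0.0316), a call lost without any 1 of EG replicates 1 to 4 or IS replicates 2 and 3 (adjusted p = 0.054 to 0.0882). With the 5 PIS libraries in the fit TFRC, SLC39A14, SLC11A2, FTH1 and CYBRD1 were not called (adjusted p = 0.0787, 0.0893, 0.0878, 0.0613 and 0.186).

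Genes on a mast cell list, also made after values were seen, were lower in EG for 4 of 7 tested members and higher for 0. The 4 include KITLG, which other tissues make and which does not mark mast cells. In all 13 were listed, and 2.59% of all genes were called lower. The list is no independent evidence, as SRGN was already among the greatest falls and the other values were known. CPA3, the mast cell carboxypeptidase gene, had 0.683, 1.35, 2.04 and 2.27 RPKM in EG replicates 1 to 4, against 6.01, 5.77 and 6.76 RPKM in IS replicates 1 to 3 (-1.75 ± 0.27 SE, adjusted p = 0.00644). HDC, which makes histamine, had 0.375, 0.792, 0.698 and 1.1 RPKM in EG replicates 1 to 4, against 2.11, 2.73 and 3.23 RPKM in IS replicates 1 to 3 (-1.38 ± 0.23 SE, adjusted p = 0.00843). The other lower members were SRGN, described above, and KITLG, the stem cell factor gene that other tissues make for mast cells and melanocytes (-0.73, adjusted p = 0.0362). Its receptor gene KIT (-0.68, adjusted p = 0.197), MITF (0.68, adjusted p = 0.17) and HPGD (-0.068, adjusted p = 0.89) were not called. The KITLG call was lost without EG replicate 1 or 2 or IS replicate 2 or 3 (adjusted p = 0.0727 to 0.12), and with the PIS libraries in the fit CPA3 (0.147), SRGN (0.0927) and KITLG (0.331) were not called. MITF was called, higher, without EG replicate 2 (0.0255).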
